A study of Mus musculus with 8 samples.

Results

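Autophagy genes were followed through cultures of mouse bone marrow adipocytes given a glucocorticoid with or without a PPARγ inhibitor. The set is a list of 40 genes for the proteins that build the autophagosome, the receptors that load it and 2 transcription factors of the pathway, matched by symbol in a table of 54134 genes. All 40 were found, and all 40 reached 1 TPM in at least 2 libraries, the filter that left 14985 genes to test. TPM divides the reads of a gene by its length and scales every library to 1 common sum.

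Autophagy wraps part of the cytoplasm in a double membrane that fuses with a lysosome, so that its contents are digested and reused. A kinase complex around ULK1 starts the process, a lipid kinase complex around Beclin 1 marks the membrane, and a pair of ubiquitin-like conjugation systems couples proteins of the ATG8 family (LC3 and GABARAP) to it, where receptors such as SQSTM1 bring in cargo. In fat cells the pathway is known for removing mitochondria and for a part in adipocyte differentiation. RNA levels do not measure autophagic flux: SQSTM1 and lipid-bound LC3 are themselves consumed by it.

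The cells were wild-type mouse bone marrow stem cells taken through 14 days of adipogenic differentiation in culture, a step that all 3 groups share. Control cultures (n = 2) received no drug named in the labels. GC cultures (n = 3) were given dexamethasone (DEX), a synthetic glucocorticoid, at 1e-06 M for 24 hours, and GC+GW9662 cultures (n = 3) received DEX plus GW9662. GW9662 inhibits PPARγ, the master transcription factor of adipocytes, and its dose is not stated in the labels. No group received GW9662 alone, so its effect was measured only on top of DEX. Whether libraries of 1 group are separate cultures is not stated, so every p-value reflects the spread among these libraries, which may be technical. Libraries were made by Smart-Seq2, which amplifies full-length cDNA by PCR and carries no strand.

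Several features of the whole data set touch every result. Estimated depth was 25216199 to 39314746 reads per library, a rough value from the steps between low TPM values. Fkbp5 and Tsc22d3, genes that glucocorticoids classically induce, went against the group labels: Fkbp5 stood at 429 to 463 TPM in the libraries labelled Control and at 32.5 to 80.3 in those labelled GC, and Tsc22d3 at 543 to 572 against 50.9 to 65.4. In GC+GW9662, which also received DEX, the pair parted, with Fkbp5 at 78.8 to 104 TPM and Tsc22d3 at 401 to 455. Every direction here rests on the labels as given. Changes also followed exon length over all genes. From the shortest to the longest of 10 equal bins of tested genes, the median log2 change went from 0.181 to -1.09 in GC against Control, from 0.397 to -0.511 in GC+GW9662 against GC and from 0.588 to -1.68 in GC+GW9662 against Control. GC replicate 1 stood apart from the other GC libraries along the same axis, with medians of 0.196 in the shortest bin and -0.808 in the longest. The genes whose calls changed when this length trend was removed are therefore named for each comparison.

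The makeup of the cultures moved with the groups as well. The 10 adipocyte markers summed to 1210 TPM in each Control library, 37.8 to 52.9 in GC and 1130 to 1280 in GC+GW9662, with Lep at 0 in every library. The sum was thus far higher with the PPARγ inhibitor added to DEX than with DEX alone. Pparg, the gene of PPARγ, averaged 7.57, 2.94 and 17.6 TPM in the 3 groups. For an inhibitor of PPARγ this direction also went against the group labels, and its reason was not tested. Between Control and GC+GW9662 the single genes differed in opposite directions. Lpl averaged 621 and 92.8 TPM and Plin1 36.1 and 22.3, whereas Fabp4 averaged 301 and 706 and Adipoq 170 and 251. The 14 macrophage markers summed to 34100 to 34700, 10300 to 10700 and 29700 to 33500 TPM, most of it C1qa, C1qb, C1qc and Lyz2. Cd68 went the other way (956 to 1000, 2230 to 3030 and 516 to 647 TPM), and Cd14 did not pass in any comparison (means 501, 456 and 436). In the same order the 10 stromal and myofibroblast markers summed to 11300 to 11600, 524 to 531 and 9290 to 9430. In Control and GC+GW9662 most of that sum was Acta2 (means 4770, 42.1 and 3130) and Tagln (3490, 225 and 5080). Col1a1 (351, 16.4 and 77.8) and Pdgfrb (171, 2.66 and 31.2) stayed far under Control in GC+GW9662, while Cxcl12 came nearer to it (166, 13.7 and 124). By these lists the cultures labelled as adipocytes held far more macrophage than adipocyte marker RNA. The size of that gap depends on which genes are listed and does not measure shares of cells. In such bulk samples fewer cells of a type and less RNA per cell cannot be told apart. Osteoblast markers summed to 6480 to 6750, 2520 to 2630 and 4770 to 6170 TPM, nearly all of it Spp1 (means 6430, 2570 and 5500). Ibsp (88.2, 0.55 and 14.3) and Alpl (78.1, 2.68 and 16.1) fell further, and Runx2 averaged 10.3, 4.28 and 4.09. Osteoclast markers summed to 97.5 to 99.4, 56.3 to 58.5 and 62.6 to 72.5, mostly Ctsk (means 71.1, 55.9 and 58.2), while Acp5 averaged 16.4, 0.968 and 7.62. Neutrophil markers summed to 21 to 26.7, 249 to 550 and 72.4 to 83.9. The neutrophil sum was nearly all S100a8 (19.9 to 25.6, 248 to 548 and 71.1 to 82 TPM), while S100a9, Ly6g, Elane, Mpo and Ngp stayed under 1 TPM in every library. Lymphocyte markers reached at most 32 TPM (Ms4a1 at 0 throughout), endothelial markers 10.3 and erythroid markers 2.62. The part of these differences in the autophagy results was not tested.

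In GC against Control, 10 of the 40 genes were higher, 13 were lower and 17 did not pass limma's test at an adjusted p of 0.05, with a median log2 change of -0.31. Over all tested genes 55.3% passed (16.2% higher and 39.1% lower) and the median was -0.38, so the share of autophagy genes that passed was close to that of genes at large. With the length trend removed 17 were higher and 6 lower, against 28.5% and 26.7% of all genes (55.2% in all), and the members' median turned to 0.38. Atg13, Atg14, Atg5, Atg7, Atg16l1, Bnip3l and Tfe3 then passed as higher, and Becn1, Pik3c3, Atg9a, Atg16l2, Atg4c, Bnip3 and Pink1 no longer passed as lower. Leaving out either Control library leaves 1 in that group, and fewer genes then passed, both among the members and over all genes.

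GC+GW9662 against GC gave 5 higher and 23 lower genes, 12 did not pass, and the median was -0.87, against -0.11 over all genes. Of all tested genes 61.7% passed, 28.3% higher and 33.5% lower. Removing the length trend left 7 higher and 21 lower (31.7% and 32.1% of all genes) and a median of -0.40 (63.8% of all genes passed). Becn1 and Atg16l2 then passed as higher and Gabarap as lower, and Atg4b, Atg4d and Map1lc3b no longer passed. Against Control, GC+GW9662 had 6 higher and 24 lower genes, 10 did not pass, and the median was -0.90, against -0.49 over all genes. There 62.7% of all genes passed, 14.1% higher and 48.6% lower. Here the length trend mattered most: without it 14 genes were higher and 13 lower, against 23.7% and 22.8% of all genes (46.5% in all), and the median was -0.02. Wipi2, Atg12 and Tfeb turned from lower to higher, Becn1, Atg16l2, Atg4b, Atg4d and Map1lc3b were added as higher, and Ulk1, Rb1cc1, Atg2b, Atg9a, Atg7, Atg16l1, Atg4c and Tfe3 no longer passed as lower. Leaving out Control replicate 1, which leaves 1 Control library, reduced the genes called higher, both among the members and over all genes. All 3 comparisons come from the same 8 libraries and share groups pairwise, so their values are given side by side and are not independent of each other. The TPM ranges of the groups did not overlap for 28 of the 40 genes in GC against Control (71.9% of all tested genes), 29 in GC+GW9662 against GC (64.1%) and 36 in GC+GW9662 against Control (79%), shares near those of genes at large or somewhat above them.

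**Figure D1:**
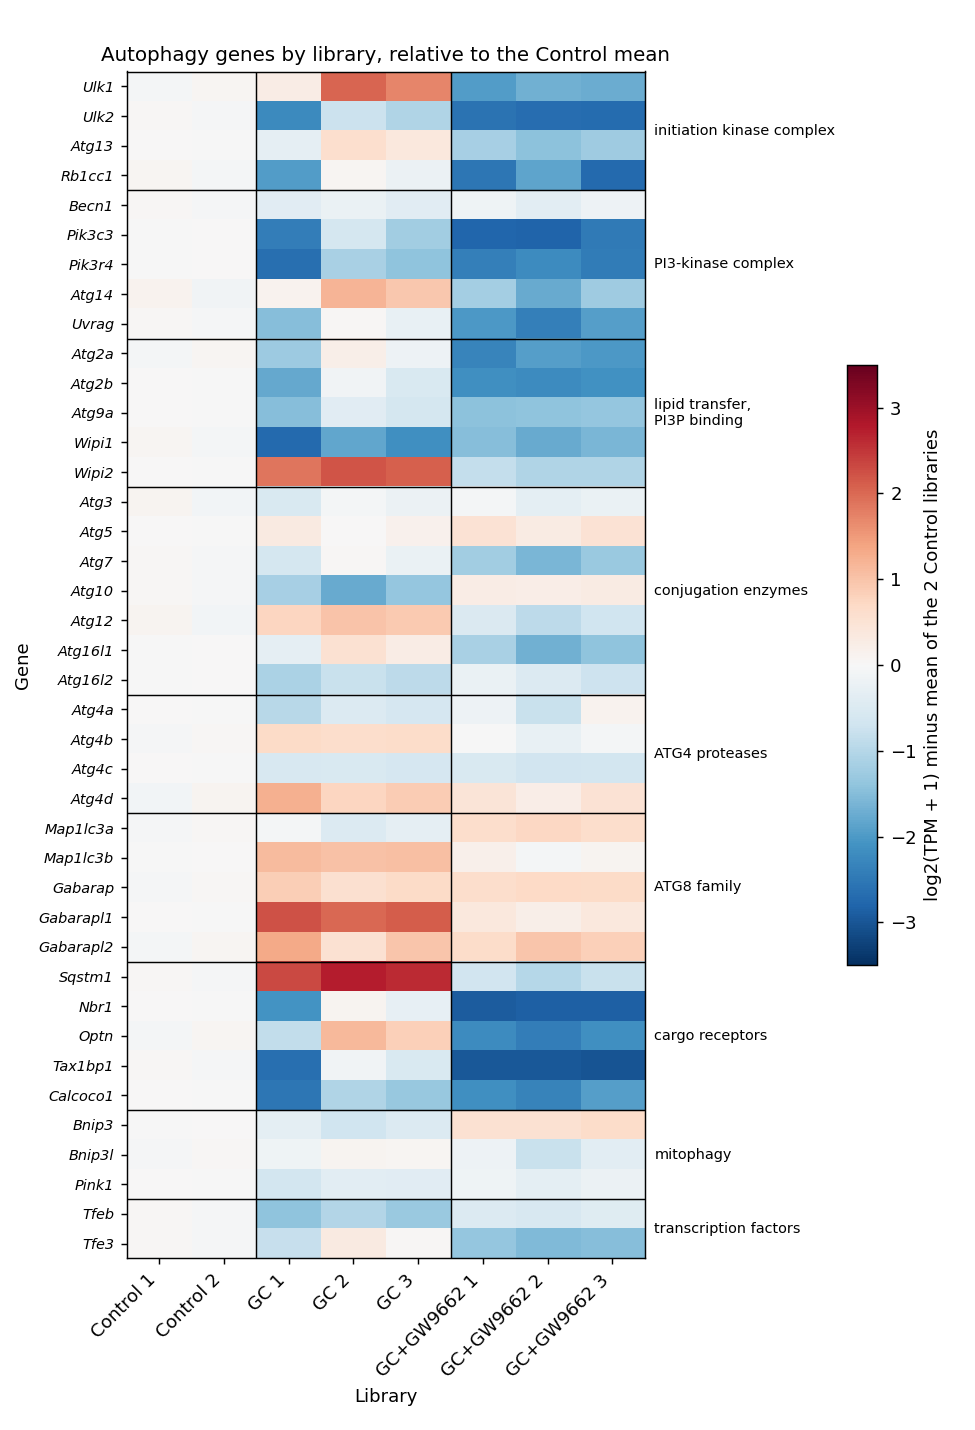
Heat map of the 40 autophagy genes (vertical axis, grouped by role) in the 8 libraries (horizontal axis). The colour gives log2(TPM + 1) minus the mean of the 2 Control libraries, red for higher and blue for lower. Sqstm1, Gabarapl1 and Wipi2 are red in all 3 GC libraries, many genes are bluer in GC replicate 1 than in the other GC libraries, and most genes outside the ATG8 family are blue in GC+GW9662.

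The 4 genes with the largest rises in GC against Control that held under every alternative, Sqstm1, Gabarapl1, Wipi2 and Map1lc3b, are shown first by their promoters. They were picked by that rise, and in GC+GW9662 against Control they parted. Sqstm1 (-0.82) and Wipi2 (-0.98) were lower there, Gabarapl1 (0.31) was higher and Map1lc3b (0.07) did not pass. RefSeq (GRCm38.p6) gave a window of 250 bases before to 50 after the start for 33 of the 40 genes, and 120 bases before to 15 after are printed, 5′ to 3′ on the strand of the gene. Sqstm1 is at chr11:50210806-50210940 on the minus strand, Gabarapl1 at chr6:129533072-129533206, Wipi2 at chr5:142629464-142629598 and Map1lc3b at chr8:121590318-121590452, all 3 on the plus strand. The RefSeq start lies 7 to 77 bases inside the gene as the table lists it for Sqstm1, Gabarapl1 and Map1lc3b, but 1886 bases inside it for Wipi2, whose window is thus that of a downstream start. Capitals in Map1lc3b mark a match to the antioxidant response element TGACNNNGC, the motif of NRF2, from base 5 to base 13 after the start.
Sqstm1: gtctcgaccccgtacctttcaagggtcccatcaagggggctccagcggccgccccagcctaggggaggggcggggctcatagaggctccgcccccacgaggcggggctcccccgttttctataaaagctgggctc
Gabarapl1: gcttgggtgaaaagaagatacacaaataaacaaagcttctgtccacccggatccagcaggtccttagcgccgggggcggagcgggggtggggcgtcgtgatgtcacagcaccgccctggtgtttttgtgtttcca
Wipi2: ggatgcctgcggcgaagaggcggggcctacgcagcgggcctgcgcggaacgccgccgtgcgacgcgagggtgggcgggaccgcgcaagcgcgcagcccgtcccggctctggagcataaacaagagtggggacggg
Map1lc3b: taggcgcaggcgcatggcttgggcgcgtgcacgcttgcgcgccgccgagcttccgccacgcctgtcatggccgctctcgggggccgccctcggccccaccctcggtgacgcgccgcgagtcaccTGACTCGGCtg

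Over the whole 300-base windows, searched on both strands, TGACNNNGC was found in 4 of the 33 genes (Atg13, Map1lc3b, Tax1bp1 and Ulk2), against 14% of the 27025 genes with a RefSeq window. The E-box CACGTG, which TFEB and TFE3 can bind, was found in 5 (Atg14, Atg3, Atg5, Atg7 and Bnip3), against 8.09% of all genes. The element TGATGCAA, bound by ATF4 with C/EBP proteins, was in none, against 1.03% of all genes. Of the 5 genes with an E-box, Atg14 and Atg3 are printed next, with the E-boxes in capitals. That of Atg14 (chr14:47568420-47568554, minus strand) spans the RefSeq start, from base -1 to base 5, which is 2215 bases inside the gene as the table lists it. Atg3 (chr16:45158709-45158843, plus strand) holds 2, at -94 to -89 and at -71 to -66.
Atg14: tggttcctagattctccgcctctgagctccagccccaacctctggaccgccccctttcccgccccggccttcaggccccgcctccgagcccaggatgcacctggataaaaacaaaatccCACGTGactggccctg
Atg3: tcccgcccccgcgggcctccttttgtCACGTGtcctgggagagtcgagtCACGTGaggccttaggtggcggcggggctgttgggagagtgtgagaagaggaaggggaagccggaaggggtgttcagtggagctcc

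The 5 cargo receptors were dominated by Sqstm1, the ubiquitin-binding receptor p62 (chromosome 11, 50199366 to 50210827, minus strand, GRCm38). Sqstm1 stood at 862 and 810 TPM in the Control libraries, at 4150, 5620 and 5120 in GC and at 525, 419 and 483 in GC+GW9662. The 3 groups did not overlap, and the order was the same in every library: GC far above Control, and GC+GW9662 below both. Sqstm1 was thus 5.94-fold higher in GC than in Control by mean TPM (log2 change 2.56 ± 0.15 SE, adjusted p = 5.5e-06). It was lower in GC+GW9662 than in GC by 3.38 on the log2 scale (-3.38 ± 0.14, adjusted p = 8e-07), and both calls held under every alternative. Against Control it fell by 0.82 in GC+GW9662 (SE 0.15, adjusted p = 0.0032), which became -0.34 (adjusted p = 0.029) with the length trend removed and -0.09, no longer past the threshold, under median-ratio scaling.

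The other 4 receptors were not raised in this way, and GC replicate 1 lay far under the other GC libraries in all 4. Nbr1, another ubiquitin receptor, stood at 96.2 and 93.3 TPM in Control, at 21.5, 101 and 77.6 in GC and at 11.8, 12.1 and 12.2 in GC+GW9662. Tax1bp1, a receptor that also binds ubiquitin, stood at 101 and 95, then 14.9, 90.3 and 68, then 11.6, 11.7 and 11.3 TPM. For Nbr1 the GC group spanned the Control values, whereas all 3 GC+GW9662 libraries lay under every other library for both genes. Optn, optineurin, a receptor best known from the removal of damaged mitochondria and bacteria, stood at 13.2 and 14.7, then 7.24, 31.6 and 25.8, then 2.22, 1.79 and 2.39 TPM. Calcoco1, a receptor for the endoplasmic reticulum and Golgi, stood at 64.8 and 62.9, then 10.3, 30.5 and 24.9, then 13.7, 11.9 and 16.2 TPM. Optn was above Control in GC replicates 2 and 3 and below it in replicate 1, while Calcoco1 was below Control in all 6 treated libraries.

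All 5 receptors were lower in GC+GW9662 than in Control, also after the length trend was removed. The log2 change was -2.98 ± 0.63 for Tax1bp1 (adjusted p = 0.0047) and -2.88 ± 0.54 for Nbr1 (adjusted p = 0.0034). Without the length trend these were -1.47 (adjusted p = 0.018) and -1.67 (adjusted p = 0.0081). Set against GC, 4 of the 5 were lower and Calcoco1 did not pass. Optn changed by -2.63 ± 0.46 there (adjusted p = 0.0017) under every alternative, and without GC replicate 1 all 5 receptors passed. That of Tax1bp1 was lost there on omission of GC replicate 2 or 3, or of replicate 1 or 2 of GC+GW9662 (adjusted p up to 0.071). In GC against Control, Calcoco1 was the single receptor that fell (-1.63 ± 0.39, adjusted p = 0.008, and -0.99 with adjusted p = 0.0081 without the length trend). Without GC replicate 1 Optn also passed, as higher (0.98, adjusted p = 0.0012).

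As shares of the summed TPM of these 5 receptors, Sqstm1 made up 75.8% and 75.3% in the Control libraries, 98.7%, 95.7% and 96.3% under GC and 93.0%, 91.8% and 92.0% under GC+GW9662. The receptor pool of the treated groups was thus nearly all Sqstm1, in GC with a raised Sqstm1 and in GC+GW9662 with a lowered sum (457 to 565 TPM, against 1080 and 1140 in Control). Sqstm1 was also 46.2% to 54.0% of the summed TPM of the whole set in GC, against 11.4% to 21.3% in the other libraries. The 40 genes summed to 4050 and 4020 TPM in Control. In GC the sum was 8990, 10400 and 10000, and in GC+GW9662 it was 3880, 3690 and 3860. Without Sqstm1 the other 39 summed to 3190 and 3210, then 4840, 4800 and 4880, then 3360, 3270 and 3380 TPM. For scale, Fth1, the ferritin heavy chain, alone made up 13.3% to 13.5% of each GC library and 3.69% to 3.91% of the others, a share that comes out of the fixed total of each library. Sqstm1 and 13 other members overlap a gene on the opposite strand in GENCODE M21, and without strand such reads cannot be told apart. The partner of Sqstm1, Mrnip, had a mean of 4.62 TPM.

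**Figure D2:**
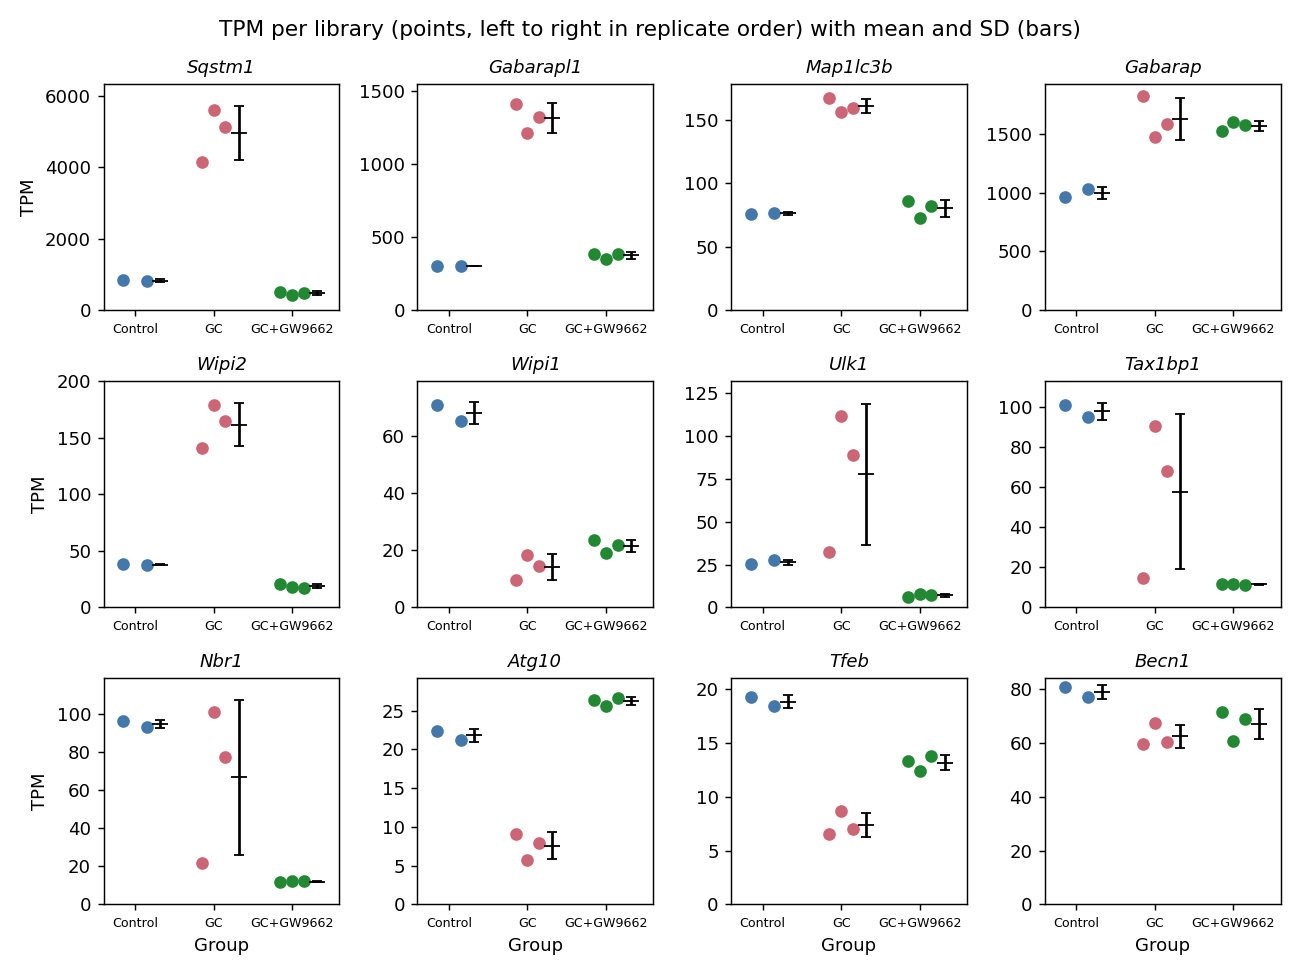
TPM (vertical axes, each from 0) of 12 autophagy genes in the Control, GC and GC+GW9662 libraries (points, in replicate order), with the mean and SD of each group as black bars. Sqstm1, Gabarapl1, Map1lc3b and Wipi2 are highest in all 3 GC libraries, Wipi1, Atg10 and Tfeb are lowest there, and in Ulk1, Nbr1 and Tax1bp1 the first GC library lies far under the other 2.

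In the ATG8 family most members rose against Control. Of its 5 genes, 4 were higher in GC than in Control and none was lower, beside 16.2% and 39.1% of all genes. The same counts held in GC+GW9662 against Control, beside 14.1% and 48.6%. Between the treated groups, 1 was higher and 2 lower in GC+GW9662 (28.3% and 33.5% of all genes). Without the length trend all 5 passed as higher in GC+GW9662 against Control (23.7% of all genes). Except for Map1lc3b, these genes have short exons (1181 to 2325 bases), and shorter genes were called higher more often in every comparison. The proteins made from these genes are coupled to the lipid of the growing membrane and bind the receptors.

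Gabarapl1 (chromosome 6, 129533160 to 129542346, plus strand), a GABARAP paralog, showed the largest rise of the family. It stood at 303 and 301 TPM in Control, at 1410, 1210 and 1320 in GC and at 387, 350 and 387 in GC+GW9662. The groups did not overlap, with the GC libraries far above both others. The log2 change was 2.11 ± 0.10 in GC against Control (4.35-fold by mean TPM, adjusted p = 2.1e-06) and -1.80 ± 0.09 in GC+GW9662 against GC (adjusted p = 2.5e-06), under every alternative. The small rise of 0.31 ± 0.10 in GC+GW9662 against Control (adjusted p = 0.03) did not pass in 8 of 21 alternatives. Those included leaving out either Control library, GC replicate 3 or GC+GW9662 replicate 1 or 3, with values of 0.28 to 0.32.

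Map1lc3b (chromosome 8, 121590361 to 121598760, plus strand) encodes LC3B, the usual marker protein of autophagosomes. It stood at 75.6 and 76.9 TPM in Control, at 167, 156 and 159 in GC and at 85.7, 72.6 and 82.2 in GC+GW9662. All GC libraries lay above all others, and the Control and GC+GW9662 groups overlapped. The rise in GC was 2.11-fold by mean TPM (log2 change 1.07 ± 0.11, adjusted p = 9e-05), and 1.83 (adjusted p = 0.00016) with the length trend removed. The change of -1.0 ± 0.10 in GC+GW9662 against GC (adjusted p = 7.5e-05) became -0.47 without the length trend and no longer passed (adjusted p = 0.064). Against Control it was 0.07 ± 0.11 in GC+GW9662 (adjusted p = 0.61). There it passed as higher under median-ratio scaling (0.79), quantile normalization (0.39) and without the length trend (1.36, adjusted p = 0.0037).

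Map1lc3a, the gene of LC3A, went the other way. It stood at 211 and 223 TPM in Control, at 207, 155 and 173 in GC and at 331, 356 and 332 in GC+GW9662. The GC+GW9662 libraries were above all others, by 0.94 ± 0.12 against GC (adjusted p = 0.00029) and by 0.64 ± 0.13 against Control (adjusted p = 0.0043), under every alternative. The second of these was 0.38 (adjusted p = 0.024) without the length trend.

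Gabarap, the most abundant member of the set in Control, was raised in both treated groups. It stood at 959 and 1030 TPM in Control, at 1820, 1470 and 1580 in GC and at 1520, 1600 and 1570 in GC+GW9662. The treated groups overlapped with each other and not with Control, and Gabarap was higher by 0.66 ± 0.11 in GC+GW9662 against Control (adjusted p = 0.0027). Gabarapl2, the third GABARAP gene, stood at 31.8 and 34.6, then 85.1, 48.8 and 65.9, then 52.8, 65.6 and 60.4 TPM, again with no overlap between Control and the treated groups. It was higher by 0.82 ± 0.22 in GC+GW9662 against Control (adjusted p = 0.012), a call lost without Control replicate 1 (0.76), as was its call in GC against Control.

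The summed TPM of the 5 ATG8 genes was 1580 and 1660 in Control, 3690, 3030 and 3300 under GC and 2380, 2440 and 2440 under GC+GW9662. Within that sum Gabarapl1 took 19.2% and 18.1%, then 38.2%, 39.8% and 40.1%, then 16.3%, 14.3% and 15.9%. Gabarapl1 thus had about the same share in Control and GC+GW9662 and a share over 38% in every GC library. Gabarap remained the largest component in all 8 libraries, at 47.8% to 65.4%. The opposite-strand partners of Gabarapl1 and Map1lc3b, 1700101I11Rik and Zcchc14, had means of 4.27 and 7.09 TPM.

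All 4 members of the initiation kinase complex passed as lower in GC+GW9662 than in both other groups. Of all genes 33.5% were lower against GC and 48.6% against Control. Ulk1, Ulk2 and Rb1cc1 have exons over the median length of the set, where 41.8% and 83.1% of all genes were lower. Without the length trend Ulk1 and Rb1cc1 no longer passed against Control. Ulk1 (chromosome 5, 110784488 to 110810097, minus strand), the kinase that starts autophagy, stood at 25.4 and 27.5 TPM in Control, at 32.1, 112 and 89.2 in GC and at 6.08, 7.57 and 7.28 in GC+GW9662. No groups overlapped, but GC replicate 1 lay close to Control and far from the other GC libraries. The change was 1.34 ± 0.45 in GC against Control (adjusted p = 0.035), and 2.02 (adjusted p = 0.00052) without the length trend. That call was lost in 10 of 21 alternatives, among them the omission of any single library other than GC replicate 1 (0.99 to 1.40, adjusted p up to 0.14). Without GC replicate 1 it was 1.88 (adjusted p = 1.8e-05). In GC+GW9662 against GC, Ulk1 changed by -3.13 ± 0.40 (adjusted p = 0.00034) under every alternative. Against Control it changed by -1.79 ± 0.45 (adjusted p = 0.0096), which ended without the length trend (-0.63, adjusted p = 0.12), under quantile normalization (-0.92), without Control replicate 1 (-1.84) and without Control replicate 2 (-1.73).

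Ulk2, the paralogous kinase, did not follow Ulk1. It stood at 50.2 and 47.1 TPM in Control, at 9.64, 28.2 and 23.1 in GC and at 7.27, 6.77 and 6.72 in GC+GW9662, so that each group lay under the one before. It fell by 2.65 ± 0.38 in GC+GW9662 against Control (adjusted p = 0.0019), and by 1.56 (adjusted p = 0.0033) without the length trend. Rb1cc1, the scaffold FIP200, has the longest exon length of the set (14690 bases). It stood at 12.7 and 11.3, then 2.33, 12.5 and 10.2, then 1.26, 2.62 and 0.962 TPM. The fall of 2.36 ± 0.57 in GC+GW9662 against Control (adjusted p = 0.0078) ended without the length trend (-0.65, adjusted p = 0.16) and without Control replicate 1 (-2.29). Its call in GC+GW9662 against GC was lost on omission of replicate 2 or 3 of GC, and of replicate 1 or 3 of GC+GW9662. Atg13, the adaptor of the complex, had 43.9 ± 0.525 TPM in Control, 52.9 ± 16.0 under GC and 17.5 ± 1.83 under GC+GW9662 (mean ± SD), and was lower in GC+GW9662 than in either other group under every alternative. Against Control that change was -1.28, and -0.49 without the length trend.

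In the lipid kinase complex the catalytic and regulatory subunits fell in GC, the regulatory one under every alternative. The calls of the catalytic subunit and of Beclin 1 there depended on the length trend. Becn1, the gene of Beclin 1, stood at 80.7 and 77.1 TPM in Control, at 59.7, 67.5 and 60.2 in GC and at 71.6, 60.8 and 69.0 in GC+GW9662. Both treated groups lay under Control and overlapped with each other. The change of -0.33 ± 0.12 in GC against Control just passed (adjusted p = 0.045), but was lost in 14 of 21 alternatives, reversed to 0.39 (adjusted p = 0.089) without the length trend and to 0.22 under median-ratio scaling. The omission of a Control library, GC replicate 3 or GC+GW9662 replicate 1 or 3 was among those alternatives (-0.30 to -0.37). It was 0.10 ± 0.11 in GC+GW9662 against GC (adjusted p = 0.43), where the sign turned when the most abundant genes were taken out of the total (-0.04), and where it passed as higher without the length trend (0.62, adjusted p = 0.0076). Against Control it was -0.23 ± 0.12 in GC+GW9662 (adjusted p = 0.12), and 1.0 (adjusted p = 0.0041) without the length trend.

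Pik3c3, the lipid kinase VPS34, stood at 29.9 and 30.8 TPM in Control, at 4.86, 19.3 and 12.5 in GC and at 3.6, 3.48 and 4.63 in GC+GW9662. Pik3r4, its regulatory subunit VPS15, stood at 20.9 and 21.1, then 2.5, 8.96 and 7.28, then 3.2, 3.77 and 3.06 TPM. For both genes every treated library lay under both Control libraries, and GC replicate 1 lay among or near the GC+GW9662 libraries. Pik3c3 changed by -1.42 ± 0.45 in GC against Control (adjusted p = 0.027). That ended without the length trend (-0.84, adjusted p = 0.063), under median-ratio scaling (-0.89) and without Control replicate 1 (-1.44) or Control replicate 2 (-1.40), while without GC replicate 1 it was -0.92 (adjusted p = 0.0057). In GC+GW9662 against Control it fell by 2.68 ± 0.45 (adjusted p = 0.0025) under every alternative. Pik3r4 fell by 1.74 ± 0.40 in GC against Control (adjusted p = 0.007), also under every alternative, with -0.78 (adjusted p = 0.013) left without the length trend.

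Atg14, the subunit that brings this complex to the site of autophagosome formation, stood at 14.5 and 12.2 TPM in Control, at 14.6, 31.7 and 26.3 in GC and at 5.27, 3.24 and 5.02 in GC+GW9662. GC replicate 1 was level with Control and the other GC libraries were above it. Atg14 changed by -2.15 ± 0.29 in GC+GW9662 against GC (adjusted p = 0.00045) under every alternative. Uvrag, which takes the place of ATG14 in another form of the complex, had 35.8 ± 1.79, 26.1 ± 12.8 and 7.54 ± 1.38 TPM in the 3 groups, and was likewise lower in GC+GW9662 than in either other group under every alternative. Its change of -2.12 against Control was -0.68 without the length trend, and that of -1.54 against GC was -1.01.

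Among the genes for membrane growth the paralogs Wipi1 and Wipi2, whose proteins bind the lipid made by VPS34, moved in opposite directions. Wipi2 (chromosome 5, 142627698 to 142670588, plus strand), which recruits the ATG16L1 complex, stood at 38.5 and 37.4 TPM in Control, at 141, 179 and 165 in GC and at 20.9, 17.8 and 17.6 in GC+GW9662. Wipi1 (chromosome 11, 109573331 to 109611967, minus strand) stood at 70.6 and 65.2, then 9.48, 18.4 and 14.5, then 23.5, 19.1 and 21.8 TPM. No groups overlapped for either gene, and GC was the highest group for Wipi2 and the lowest for Wipi1.

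Wipi2 rose by 2.06 ± 0.14 in GC against Control (4.26-fold by mean TPM, adjusted p = 1.2e-05) and changed by -3.04 ± 0.13 in GC+GW9662 against GC (adjusted p = 9.2e-07). Both calls held under every alternative, although the exons of Wipi2 (10543 bases) put it in the bin of longest genes, where the median change was -1.09 in the first comparison. Against Control it was lower in GC+GW9662 (-0.98, adjusted p = 0.0019), but higher without the length trend (0.56, adjusted p = 0.03). Wipi1 fell by 2.23 ± 0.25 in GC against Control (adjusted p = 0.00014), again under every alternative. Compared with GC, GC+GW9662 had it higher by 0.61 ± 0.22 (adjusted p = 0.041), which did not pass in 11 of 21 alternatives. These included leaving out any library other than GC replicates 1 and 2 (0.55 to 0.69). Without GC replicate 1 the rise was 0.37 (adjusted p = 0.038).

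The remaining genes of this group, Atg2a and Atg2b for lipid transfer and Atg9a for a lipid scramblase, had lower means in both treated groups. In GC+GW9662 they stood at 4.44 ± 0.731, 1.49 ± 0.076 and 9.34 ± 0.322 TPM, against 21.9 ± 1.77, 10.1 ± 0.283 and 26.4 ± 0.581 in Control. All 3 passed as lower in that comparison. The Atg2a call held under every alternative (-2.08, and -0.77 without the length trend), while those of Atg2b and Atg9a were lost without the length trend (adjusted p = 0.083 and 0.12). On the opposite strand Atg2b overlaps Gskip (mean 34.4 TPM) and Atg9a overlaps Ankzf1 (mean 5.0 TPM), so that their low values are uncertain.

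**Figure D3:**
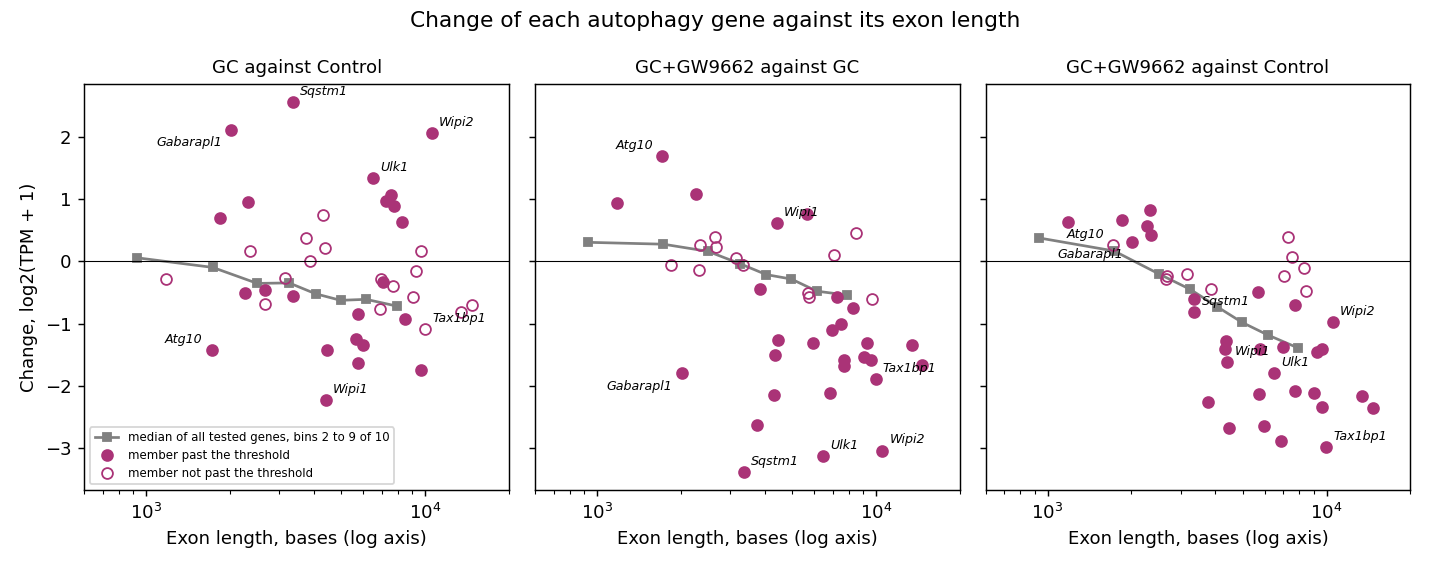
Change of each of the 40 autophagy genes (vertical axis, log2(TPM + 1) scale) against its exon length in bases (horizontal log axis) in the 3 comparisons, with filled points past the threshold and open points not. Grey squares give the median change of all tested genes in length bins 2 to 9 of 10, which falls with length in every panel. Wipi2, at 10543 bases, lies far above that line in GC against Control and far under it in GC+GW9662 against GC.

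The calls also differed by exon length within the set. In GC+GW9662 against GC, the 20 members under the median exon length of the set held 5 higher and 7 lower genes, and the 20 longer ones 0 and 16. Among all tested genes on either side of that length, 33.4% were higher and 30.3% lower on the short side, and 15.2% and 41.8% on the long side. For GC+GW9662 against Control the counts were 6 higher and 9 lower among the shorter members and 0 and 15 among the longer. Of all tested genes 18.6% and 35.2% passed on the short side and 2.6% and 83.1% on the long side. In GC against Control the order was not the same: 4 were higher and 8 lower among the shorter and 6 and 5 among the longer. The shares of all genes were 19.3% and 34.6% on the short side and 8.17% and 50.6% on the long side. With the trend removed the longer members held 9 higher and 2 lower in GC against Control, 2 and 13 in GC+GW9662 against GC, and 7 and 6 in GC+GW9662 against Control. The difference between the members and other genes of like length was not tested.

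Of the 7 conjugation genes, 1 was higher and 2 were lower in GC against Control, and 1 was higher and 3 lower in both other comparisons. Of all genes 16.2% were higher and 39.1% lower in GC against Control, 28.3% and 33.5% in GC+GW9662 against GC, and 14.1% and 48.6% in GC+GW9662 against Control. Without the length trend the counts became 4 and 1 in GC against Control, 2 and 3 in GC+GW9662 against GC, and 3 and 0 in GC+GW9662 against Control. The shares of all genes then were 28.5% and 26.7%, 31.7% and 32.1%, and 23.7% and 22.8%. With 7 genes these counts say little beyond those shares. Atg10, the E2-like enzyme that attaches ATG12 to ATG5, stood at 22.4 and 21.2 TPM in Control, at 9.11, 5.69 and 7.94 in GC and at 26.4, 25.6 and 26.6 in GC+GW9662. The GC libraries were the lowest and did not overlap with the others. Atg10 changed by -1.43 ± 0.19 in GC against Control (adjusted p = 0.00039) and by 1.69 ± 0.17 in GC+GW9662 against GC (adjusted p = 9.4e-05), the largest rise of the set there, both under every alternative. Its exon length (1718 bases) is among the shortest of the set.

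Atg12, the ubiquitin-like protein that is attached, moved against its enzyme. Its mean was 96.1 ± 7.97 TPM in Control, 179 ± 15.9 under GC and 59.1 ± 8.72 under GC+GW9662. It was higher in GC than in Control and lower in GC+GW9662 than in GC under every alternative. Against Control it was lower in GC+GW9662 as deposited but higher without the length trend (adjusted p = 0.005 and 0.019). Atg5, its partner in the conjugate, stood at 73.6 and 71.4 TPM in Control, at 90.9, 73.3 and 81.3 in GC and at 104, 87.9 and 103 in GC+GW9662. The GC group overlapped with both others, and the GC+GW9662 libraries lay above Control by 0.43 ± 0.13 (adjusted p = 0.021). The omission of Control replicate 1 or 2 or of GC+GW9662 replicate 1 or 3 ended that call (0.39 to 0.45).

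Among the other conjugation genes 1 passed in GC. Atg7, the E1-like enzyme of both systems, had 35.2 ± 1.08, 29.4 ± 6.86 and 13.1 ± 1.81 TPM in the 3 groups, and Atg16l1, which places the conjugate on the membrane, had 23.3 ± 0.368, 27 ± 7.89 and 8.22 ± 1.71. Both were lower in GC+GW9662 than in GC under every alternative, with changes of -1.10 and -1.58, or -0.59 and -1.05 without the length trend. Their calls against Control were lost without the length trend (adjusted p = 0.34 and 0.72), where Atg16l1 changed sign. Atg3, the E2-like enzyme for ATG8 proteins, did not pass in any comparison. Its lowest library was GC replicate 1 at 73.0 TPM and its highest Control replicate 1 at 113. Atg16l2, a paralog of Atg16l1, was the member nearest the filter, at 0.713 to 2.72 TPM, and the opposite-strand gene Fchsd2 (mean 9.01 TPM) overlaps it. It was lower in GC than in Control (-0.93, adjusted p = 0.0064), but not without the length trend (-0.07, adjusted p = 0.82).

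The ATG4 proteases cut ATG8 proteins before coupling and release them afterwards. Atg4b had 41.0 ± 1.66 TPM in Control, 64.3 ± 1.3 under GC and 37.9 ± 3.29 under GC+GW9662, and Atg4d had 6.87 ± 0.761, 14.5 ± 2.85 and 9.39 ± 0.978. Both rose in GC against Control under every alternative, though Atg4d overlaps Kri1 (mean 7.1 TPM) on the opposite strand. Both were lower in GC+GW9662 than in GC, but not without the length trend (adjusted p = 0.37 and 0.90). The Atg4d call there was also lost without GC replicate 3, GC+GW9662 replicate 1 or GC+GW9662 replicate 2. Atg4c fell from 19.9 ± 0.343 to 13.2 ± 0.315 TPM in GC and 12.7 ± 0.74 in GC+GW9662. Neither of its calls passed without the length trend (adjusted p = 0.47 and 0.43) or without Control replicate 1, and that in GC also not without Control replicate 2. Atg4a, at 13.5 ± 0.265, 8.14 ± 1.5 and 11.4 ± 3.62 TPM, did not pass in any comparison and shares sequence with the pseudogene Atg4a-ps, listed at 0.736 to 1.6 TPM.

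Of the 3 mitophagy genes, Bnip3 and Pink1 had no overlap between any groups. The BNIP3 protein sits in the outer mitochondrial membrane and binds ATG8 proteins. Bnip3 stood at 46.0 and 46.7 TPM in Control, at 36.4, 28.4 and 32.8 in GC and at 67.7, 67.8 and 72.6 in GC+GW9662. GC was the lowest group and GC+GW9662 the highest. The rise was 1.08 ± 0.12 against GC (adjusted p = 0.00014, under every alternative) and 0.57 ± 0.13 against Control (adjusted p = 0.0066), the latter lost without Control replicate 1 (0.56). Bnip3l, the related receptor NIX, had 79.5 ± 3.07, 80.0 ± 7.3 and 59.3 ± 12.4 TPM, and its call as lower in GC+GW9662 than in GC (adjusted p = 0.044) was lost in 13 of 21 alternatives, among them the omission of any library other than GC replicate 1 and GC+GW9662 replicate 1. Reads of Bnip3l can be shared with the pseudogene Bnip3l-ps, listed at 9.54 to 24.4 TPM. Pink1, the kinase that tags damaged mitochondria, had 206 ± 3.94, 150 ± 15.0 and 176 ± 12.2 TPM. It was lower in GC than in Control (adjusted p = 0.011), but not without the length trend (adjusted p = 0.41) or without either Control library.

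Tfeb and Tfe3, transcription factors that switch on lysosomal and autophagy genes once they enter the nucleus, parted in their changes. Tfeb stood at 19.3 and 18.4 TPM in Control, at 6.5, 8.67 and 7.05 in GC and at 13.3, 12.4 and 13.8 in GC+GW9662. Tfe3 stood at 44.0 and 41.9, then 24.0, 53.3 and 44.4, then 16.1, 14.1 and 14.6 TPM. The Tfeb groups did not overlap, with GC lowest, whereas for Tfe3 the GC group spanned the Control values and GC+GW9662 was lowest.

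Tfeb fell by 1.25 ± 0.17 in GC against Control (adjusted p = 0.0004) and rose by 0.76 ± 0.15 in GC+GW9662 against GC (adjusted p = 0.003), both under every alternative. Without the length trend the values were -0.61 (adjusted p = 0.0072) and 1.16 (adjusted p = 9.1e-05). Its change of -0.49 ± 0.17 in GC+GW9662 against Control (adjusted p = 0.033) turned to 0.56 (adjusted p = 0.015) without the length trend, to 0.20 under median-ratio scaling and to 0.44 under quantile normalization. The call was also lost on omission of any single library other than GC replicates 1 and 2 (-0.45 to -0.52). Tfe3 changed by -1.31 ± 0.26 in GC+GW9662 against GC (adjusted p = 0.0033, under every alternative, and -0.78 without the length trend) and by -1.46 ± 0.29 against Control (adjusted p = 0.0041), the latter ending at -0.01 without the length trend. In GC against Control its change of -0.15 ± 0.29 did not pass (adjusted p = 0.69), turned to 0.18 without GC replicate 1, and was 0.77 (adjusted p = 0.00075) without the length trend.

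Ratios between related genes are free of the scaling of a library, though not of the length trend, and they set the 3 groups apart in most pairs. The TPM ratio of Wipi2 to Wipi1 was 0.546 and 0.573 in Control, 14.9, 9.75 and 11.4 under GC and 0.888, 0.935 and 0.809 under GC+GW9662. The ratio of Ulk1 to Ulk2 was 0.506 and 0.584, then 3.33, 3.97 and 3.87, then 0.836, 1.12 and 1.08. In both pairs, whose members have like exon lengths only in the case of Ulk1 and Ulk2 (6488 and 5977 bases), the GC libraries stood clear of all others, and in the Ulk pair GC replicate 1 lay near the other GC libraries. The ratio of Gabarapl1 to Gabarap (2013 and 1844 bases) was 0.316 and 0.293, then 0.773, 0.822 and 0.838, then 0.254, 0.219 and 0.246. The ratio of Tfeb to Tfe3 was 0.438 and 0.440, then 0.271, 0.163 and 0.159, then 0.824, 0.879 and 0.942. Here GC was the lowest group and GC+GW9662 the highest, as also for Bnip3 to Bnip3l, at 0.595 and 0.572, then 0.508, 0.332 and 0.396, then 0.962, 1.48 and 1.18. With 2 or 3 libraries in a group these ratios are a description and were not tested.

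**Figure D4:**
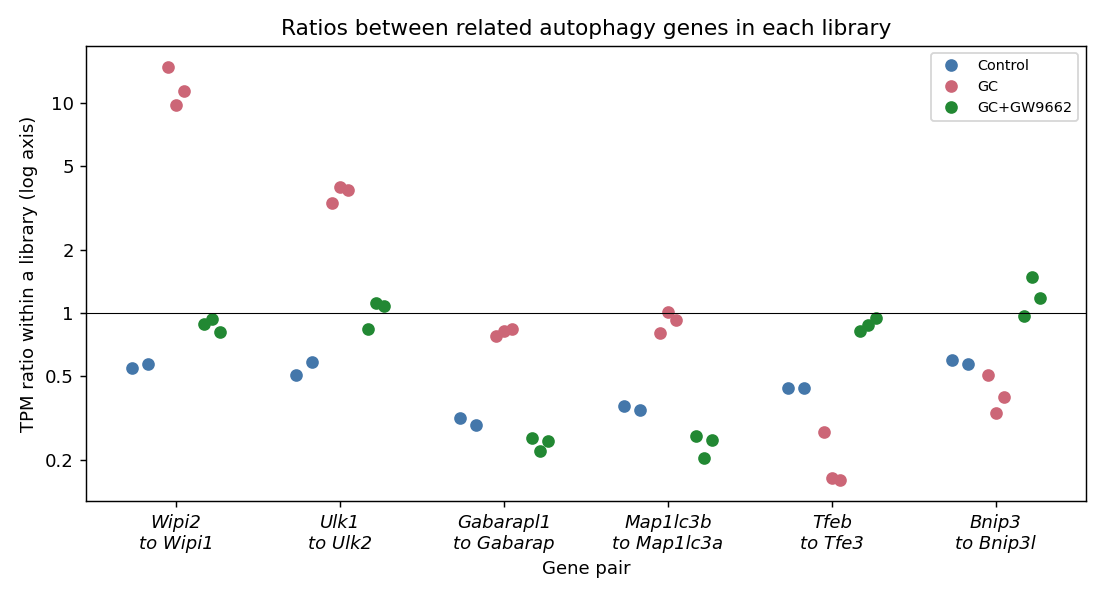
TPM ratio of 6 pairs of related autophagy genes (horizontal axis) within each library (vertical log axis), with 1 point per library coloured by group and a line at a ratio of 1. The GC libraries lie above all others for Wipi2 to Wipi1, Ulk1 to Ulk2, Gabarapl1 to Gabarap and Map1lc3b to Map1lc3a, and under all others for Tfeb to Tfe3 and Bnip3 to Bnip3l.

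Of 52 further genes of the pathway (other subunits, fusion factors, receptors and upstream regulators), 51 were tested. In GC against Control 12 were higher, 19 lower and 20 did not pass, with a median log2 change of -0.24 (23 higher and 9 lower without the length trend). Of all tested genes 16.2% were higher and 39.1% lower, with a median of -0.38. The largest rises were those of Tollip, an adaptor that binds ubiquitin (1.70 ± 0.13, adjusted p = 2.4e-05), Akt1s1, the mTORC1 inhibitor PRAS40 (1.23 ± 0.09, adjusted p = 1.5e-05), and Atg101, a subunit of the ULK1 complex (1.16 ± 0.17, adjusted p = 0.00068). The largest falls were those of Wdfy3, a scaffold for protein aggregates (-2.92 ± 0.33, adjusted p = 0.00016), Mitf, a relative of TFEB (-2.51 ± 0.38, adjusted p = 0.00072), and Retreg1, an ER-phagy receptor (-2.46 ± 0.18, adjusted p = 1.5e-05). Tollip averaged 108 ± 0.52 TPM (SD) in Control, 356 ± 40.1 under GC and 86.2 ± 9.02 under GC+GW9662. Wdfy3 stood at 27.9 ± 1.92, 3.04 ± 1.52 and 3.97 ± 0.231 TPM, and without the length trend its change in GC was -1.71 (adjusted p = 2.1e-05).

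For GC+GW9662 against GC the 51 split into 7 higher, 32 lower and 12 that did not pass, with a median of -0.84 (10 higher and 29 lower without the length trend). Of all tested genes 28.3% were higher and 33.5% lower, with a median of -0.11. Fundc1, a mitophagy receptor, rose by 1.93 ± 0.16 (adjusted p = 2.8e-05), Trp53inp2, a regulator that binds ATG8 proteins, by 1.48 ± 0.12 (adjusted p = 2.3e-05) and Vamp8, a SNARE of autophagosome fusion, by 1.31 ± 0.17 (adjusted p = 0.00036). Fnip2 and Fnip1, partners of folliculin in nutrient sensing, fell by 3.31 ± 0.39 (adjusted p = 0.00021) and 2.54 ± 0.53 (adjusted p = 0.004). Nfe2l2, the gene of NRF2, a transcription factor known to act on Sqstm1, fell by 2.94 ± 0.40 (adjusted p = 0.00042), from 245 ± 126 TPM in GC to 27.9 ± 4.64, with 165 ± 8.85 in Control.

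Compared with Control, GC+GW9662 had 7 higher and 35 lower, 9 did not pass, the median was -1.33, and without the length trend 15 were higher and 18 lower. There 14.1% of all tested genes were higher and 48.6% lower, with a median of -0.49. Vamp8 (1.04 ± 0.19, adjusted p = 0.0032), Fundc1 (0.62 ± 0.18, adjusted p = 0.015) and Vmp1, a scramblase of the endoplasmic reticulum (0.59 ± 0.17, adjusted p = 0.016), led the rises. Fnip1 (-2.82 ± 0.60, adjusted p = 0.0047), Fnip2 (-2.57 ± 0.44, adjusted p = 0.0027) and Wdfy3 (-2.54 ± 0.33, adjusted p = 0.0016) led the falls. Without the length trend these 3 falls were -1.58, -1.19 and -0.81, all past the threshold, and the rise of Vmp1 was 1.23 (adjusted p = 0.0055). The Vmp1 call was lost without Control replicate 1 (0.55) or Control replicate 2 (0.63), and that of Fundc1 without Control replicate 1 (0.50).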

How the data were processed

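RNA-seq of 8 libraries in 3 groups was analysed from the deposited table, in which the authors give TPM for each gene. Per the submitters' processing notes fastp, HISAT2 2.1.0 and featureCounts were used. The order of these steps, the build and the annotation are not given in the sources used here, but 97.4% of the genes in its 54232 rows had the start and end of GENCODE M21 (GRCm38), which gave exon lengths. Repeated rows (98) were dropped and 27 symbols listed as dates were restored from the Ensembl ID, which left 54134 genes. Between 63.8% and 67.5% of low values were whole numbers of reads (tolerance 0.02 reads) at those lengths, so depth is a rough estimate, and it bounds counting error only.

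The 14985 genes that reached 1 TPM in 2 or more libraries were tested on log2(TPM + 1), which understates the change of low genes, by limma 3.58.1 (R 4.3.3; data.table, version 1.17.8). The fit had a mean per group over all 8 libraries, a prior with a trend over mean expression, and two-sided p-values adjusted over all genes by Benjamini-Hochberg at 0.05. Its code was tested on simulated data. Errors of means are SD and those of changes SE. Tables were made in Python 3.11.15 (pandas 2.3.3, numpy 2.4.6) and plots in matplotlib 3.10.9.

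Members, gene lists and the naming rule were chosen with earlier results of these data known. Values per library are given for Sqstm1, Map1lc3b, Gabarapl1, Ulk1, Becn1, Tfeb and Tfe3 and for the 5 largest rises and 5 largest falls past the threshold among the members in each comparison. Other pathway genes are named for the 3 largest of each. The 21 alternatives changed the scaling (median-ratio, quantile, or without mitochondrial genes and the 20 most abundant), the pseudocount (0.1 or 5), the low-value filter (none or 5 TPM) and the fit (only the groups compared, a constant prior or replicate blocks). Others were each library left out, and a loess trend over exon length (span 0.3) removed, with and without GC replicate 1. The last of these was added after the data were seen. Control libraries carry different numbers in titles and in brackets, and replicates are named by title. Numbers shared by GC and GC+GW9662 libraries did not pair them (correlations of deviations -0.097, -0.12 and 0.079).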

Additional observations from a re-analysis of the deposited data

How the results depend on the processing

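Of 44 changes of named members under 21 alternatives each, 825 values kept their direction and side of the threshold, 75 lost the threshold, 6 gained it and 18 changed sign. Of the 23, 28 and 30 members called in GC against Control, GC+GW9662 against GC and GC+GW9662 against Control, 13, 19 and 13 were called under every alternative. The matching share over all genes was not counted, so these counts cannot be set against genes at large. In GC against Control the 10 higher members became 17 with the length trend removed and 25 when GC replicate 1 was also left out. Over all genes the share called higher went from 16.2% to 28.5% and 32.2%. The 13 lower became 7 under median-ratio scaling, 7 under quantile normalization, 8 after rescaling without the most abundant genes, 6 with the length trend removed and 8 when GC replicate 1 was also left out. In those settings the share of all genes called lower went from 39.1% to 26.5%, 26.1%, 33.4%, 26.7% and 29.7%. With single libraries left out, 14 to 27 members were called there, 6 to 15 of them lower. Over all genes 49% to 61.8% were called there with a GC or GC+GW9662 library left out, and fewer with a Control library left out. The members' median of -0.31 turned to 0.25, 0.07, 0.38 and 0.45 under median-ratio scaling, quantile normalization, the length trend removed, and that without GC replicate 1. In the same 4 settings the 6 higher members of GC+GW9662 against Control became 13, 11, 14 and 14, and 2 to 7 with single libraries left out. The 24 lower members of that comparison became 13 with the length trend removed (48.6% and 22.8% of all genes). In GC+GW9662 against GC the 5 higher became 8 under median-ratio scaling (28.3% and 31% of all genes). These scalings also move the median of all genes, from -0.38 to 0.05 in GC against Control under median-ratio scaling. Among the 44 changes the sign turned for Becn1, Tfe3 and Tfeb. Becn1 turned to 0.22 (median-ratio), 0.39 (length trend) and 0.20 (also without GC replicate 1) in GC against Control, to -0.04 after rescaling in GC+GW9662 against GC, and to 0.49, 0.10, 1.0 and 1.0 in the 4 settings above in GC+GW9662 against Control. Tfe3 turned in GC against Control to 0.40, 0.33, 0.77 and 0.84 in those 4 settings and to 0.05 after rescaling, and ranged from -0.38 to 0.18 with single libraries left out. Tfeb turned in GC+GW9662 against Control to 0.20, 0.44, 0.56 and 0.56. Of 18 changes of other pathway genes, 374 values were kept and 4 lost the threshold.

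A replicate block by title number called 20, 25 and 27 members in the 3 comparisons in the order above, and one by bracketed number 20, 26 and 29. Over all genes the blocks called 47.7%, 55.7% and 55.8% by title number and 48.9%, 56.4% and 55.8% by bracketed number. Same-numbered libraries share only a number, so these blocked counts are no paired result. Depth limits few members: Atg16l2 and Rb1cc1 fell under 1 TPM in some libraries, and Atg2b and Optn stayed low in GC+GW9662. The cause of the length trend was not tested.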
